A study of Homo sapiens with 6 samples.

Results

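Nucleolar ribosome synthesis genes were followed in the human cell line MDA-MB-231, derived from a triple-negative breast carcinoma, kept for 8 h with 5 µM SAHA or with its solvent DMSO. SAHA (vorinostat) is a hydroxamate that inhibits histone deacetylases. Total RNA of 3 SAHA and 3 DMSO samples was hybridized to 1 Affymetrix PrimeView array each, 6 in all, so that transcript levels with and without deacetylase inhibition can be compared. Both groups are of 1 cell line, grown in medium with serum, and carry no genetic change named in the labels.

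The genes were taken by symbol: those beginning NOP, UTP, RRP or NOL followed by a digit, POLR1A to POLR1H, and 24 further factors named one by one. This gave 68 of the 18132 genes measured. Of the 24 named factors, EBNA1BP2 and GNL3 were not analysed here. Of the 68, 64 encode proteins with a known part in making ribosomes. The other 4 match by symbol only: NOL3, an inhibitor of apoptosis, NOL4, NOL4L and the divergent transcript NOL4L-DT.

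Ribosome synthesis begins in the nucleolus, where RNA polymerase I copies the ribosomal DNA into a long precursor of the 18S, 5.8S and 28S rRNAs. Small nucleolar ribonucleoproteins (snoRNPs) methylate and pseudouridylate this precursor, and assembly factors fold and cut it while ribosomal proteins join. The small and large subunits then mature along separate routes, each with its own factors, and are exported to the cytoplasm. Cancer cells with high growth rates usually make many ribosomes.

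Values are log2 expression values, and a fold change is SAHA minus DMSO on that scale with its standard error (SE). A gene was called changed when limma's test, adjusted by Benjamini-Hochberg over all 18132 genes, gave a p under 0.05. Separate cultures are not named in the labels, and the p-values reflect only how these samples spread, possibly for technical reasons. Precision is limited by the number of arrays. Arrays of 1 group correlated at 0.998 (SAHA) and 0.997 (DMSO) across probe sets, against 0.969 to 0.970 between the groups. VIM, a marker of mesenchymal cells, was at 14.02 in SAHA and 13.96 in DMSO arrays, while CDH1, the epithelial cadherin, was at 4.17 and 4.20, and the leukocyte marker PTPRC at 3.24 and 3.33. Other markers differed between the groups: EGFR was at 7.39 in SAHA and 9.26 in DMSO arrays, CD44 at 11.66 and 12.24, AXL at 12.23 and 12.61, EPCAM at 7.74 and 8.67, ERBB2 at 7.16 and 7.63, and the collagen gene COL1A1 at 5.76 and 5.27. EPCAM, an epithelial marker, was thus not near the floor in either group. The 3' minus 5' difference of the ACTB control, a measure of transcript integrity, was 0.61 ± 0.06 in SAHA and 0.89 ± 0.16 in DMSO arrays (SD, n = 3 each). The exact permutation test, two-sided, gave p = 0.1, its smallest possible value with these group sizes, and 0.175 adjusted over 7 control measures. The same difference for GAPDH was 0.06 ± 0.02 in SAHA and 0.03 ± 0.02 in DMSO arrays, with the same p-values and the opposite direction. Both separated the groups, and their part in the results was not tested.

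With SAHA most ribosome synthesis genes were lower. Of the 68 genes, 51 fell, 7 rose and 10 were not called. Among all genes 48.3% were called, 23.8% lower and 24.6% higher, against 75.0% and 10.3% of these genes. At a change of at least 1.5-fold, 32 of the 68 fell and 3 rose, against 10.6% of all genes lower and 12.3% higher. A fall of at least 2-fold was found in 15 of them and in 4.47% of all genes, and none of them rose as far. The median fold change of the 68 was -0.56, and that of all genes was -0.01. In 54 of the 68 every SAHA array lay below every DMSO array, which held for 27.5% of all genes, and in 8 every SAHA array lay above, which held for 28% of all genes.

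The share of genes called varies with level on these arrays, so the counts are also given by level. Of the 58 with a mean log2 value of at least 8, 45 were lower and 4 higher. Of all 6642 genes at that level, 40.8% were lower and 35% higher. Every SAHA array lay below every DMSO array in 48 of the 58 (82.8%), and in 46.2% of all genes at that level. A fall of at least 2-fold was found in 12 of the 58 (20.7%), and in 6.7% of all genes at that level. The 5 brightest, with means of at least 12, were NPM1, NCL, FBL, NHP2 and NOP56, and their fold changes lay between -0.51 and 0.01 (2 lower, against 26.9% of all genes at that level). The largest fall, that of UBTF, ranked 212 among all 18132 fold changes counted from the largest fall.

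**Figure D1:**
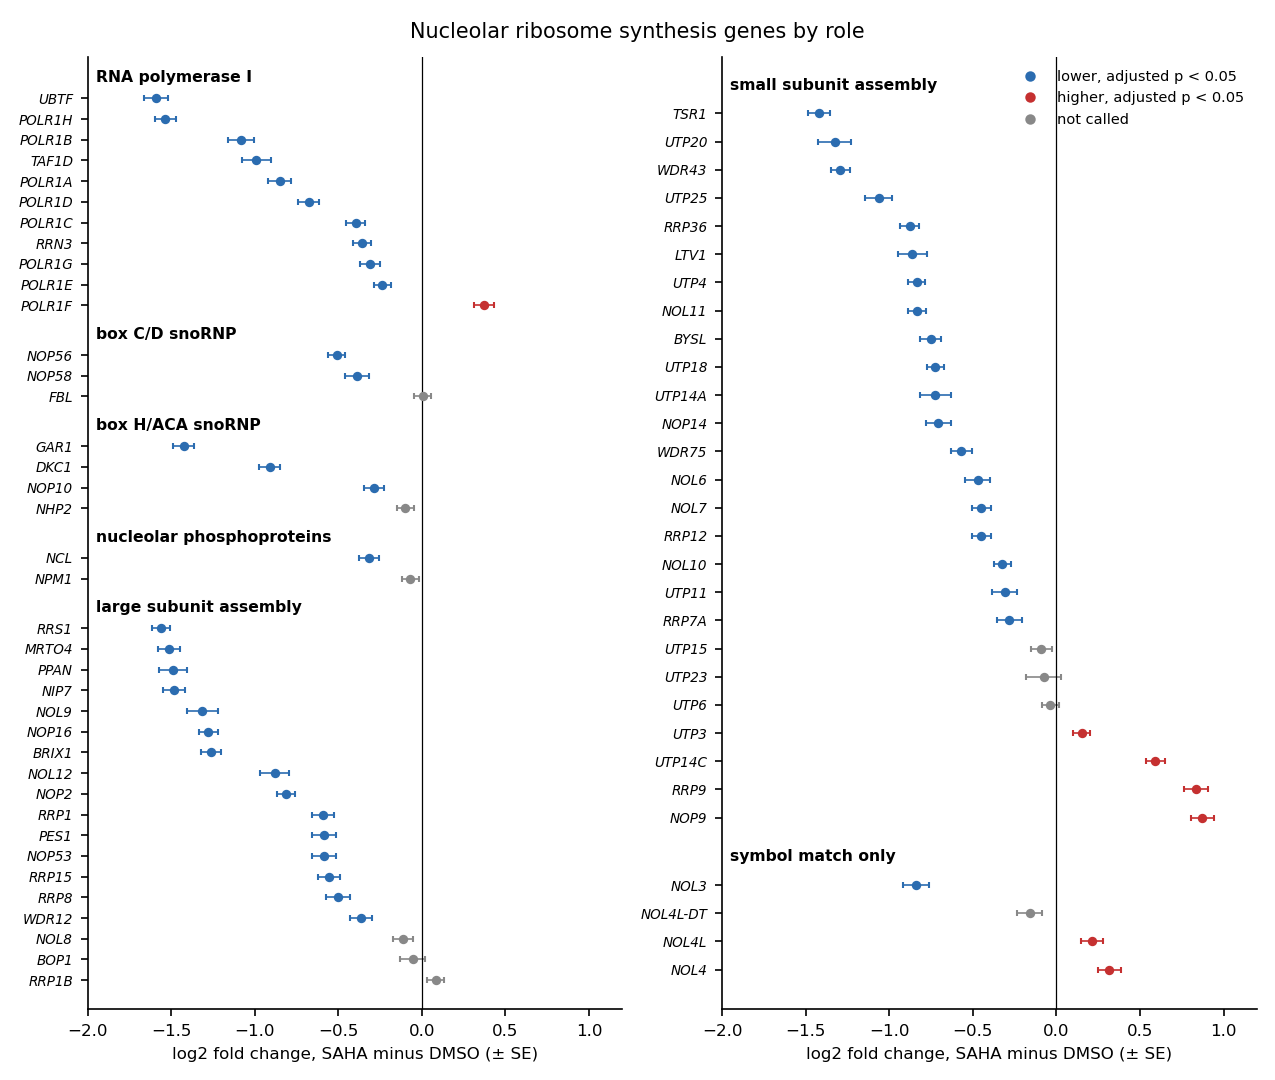
Log2 fold change of each of the 68 genes, SAHA minus DMSO, on the horizontal axis with its standard error as a bar (n = 3 arrays per group), grouped by role. Blue points are the 51 genes called lower, red the 7 called higher and grey the 10 not called; falls reach -1.59 (UBTF) and rises 0.87 (NOP9).

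**Figure D2:**
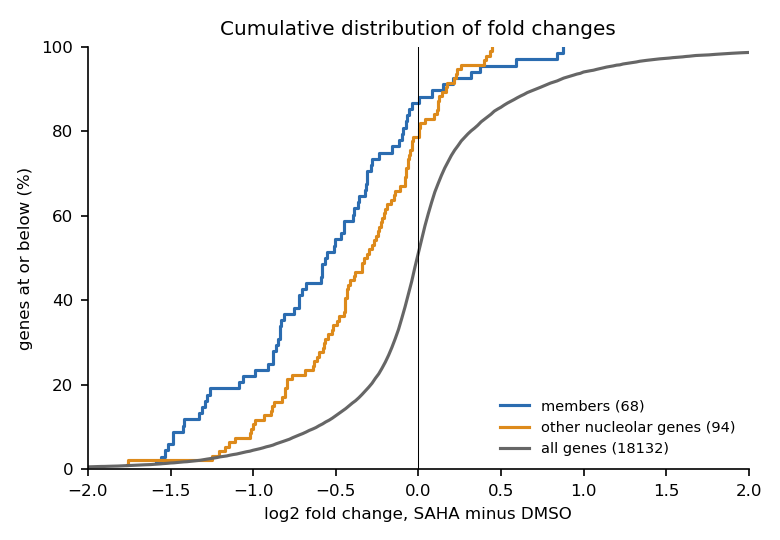
Share of genes (percent, vertical axis) at or below each log2 fold change, SAHA minus DMSO (horizontal axis, drawn from -2 to 2), for the 68 genes, 94 other nucleolar genes and all 18132 genes. Over most of its height the curve of the 68 genes (median -0.56) lies to the left of that of the other nucleolar genes (median -0.32) and of all genes (median -0.01).

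Promoter sequences show what many of these genes share outside the measured values. RefSeq promoters of build GRCh38.p14, 250 bases before to 50 bases after each annotated start, were matched by symbol for 60 of the 68 genes. The hexamer CACGTG, the E-box to which MYC with MAX and other basic helix-loop-helix factors can bind, was looked for as exact letters (it reads the same on both strands). It was in 19 of the 60 promoters (31.7%), against 8.8% of 14425 promoters of genes on the array. Of the 21 hexamers found, 17 began within 50 bases of the start. Falling and other genes both held it: 16 of 46 that fell, 1 of 7 that rose and 2 of 7 that were not called. The median fold change was -0.72 for the 19 genes with the hexamer and -0.57 for the 41 without it. These are descriptions of letters in a window, and binding was not measured.

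Stretches of 130 bases, from 100 before the start, are shown for the 4 genes with the largest falls among those with the hexamer in this window, for RRP9, which rose, for FBL, which was not called, and for UBTF, which had the largest fall of all 68 and no such hexamer in it. Each reads 5′ to 3′ on the gene's strand, with CACGTG in capitals.
MRTO4 (chr1:19251705-19251834, plus strand): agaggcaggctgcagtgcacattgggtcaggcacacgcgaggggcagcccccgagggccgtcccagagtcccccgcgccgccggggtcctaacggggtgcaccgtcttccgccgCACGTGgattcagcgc
UTP20 (chr12:101280005-101280134, plus strand): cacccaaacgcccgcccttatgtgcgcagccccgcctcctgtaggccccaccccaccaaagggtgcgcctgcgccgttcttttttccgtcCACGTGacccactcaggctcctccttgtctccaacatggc
WDR43 (chr2:28894567-28894696, plus strand): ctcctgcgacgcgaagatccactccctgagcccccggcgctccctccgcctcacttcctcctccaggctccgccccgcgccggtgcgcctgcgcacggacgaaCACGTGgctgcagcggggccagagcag
UTP25 (chr1:209827872-209828001, plus strand): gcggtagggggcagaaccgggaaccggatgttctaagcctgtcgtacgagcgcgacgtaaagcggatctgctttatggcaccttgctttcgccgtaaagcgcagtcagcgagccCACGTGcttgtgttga
RRP9 (chr3:51941875-51942004, minus strand): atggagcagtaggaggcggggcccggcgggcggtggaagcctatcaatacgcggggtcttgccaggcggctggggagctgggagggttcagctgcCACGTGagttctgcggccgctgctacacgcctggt
FBL (chr19:39846350-39846479, minus strand): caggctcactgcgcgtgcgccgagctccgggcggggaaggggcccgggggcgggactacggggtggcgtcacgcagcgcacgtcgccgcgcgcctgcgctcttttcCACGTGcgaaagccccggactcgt
UBTF (chr17:44220853-44220982, minus strand): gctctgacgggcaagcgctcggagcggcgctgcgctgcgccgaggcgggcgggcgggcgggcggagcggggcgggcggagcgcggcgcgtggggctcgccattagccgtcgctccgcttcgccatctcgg

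Counted with 0 at the annotated start, the hexamer began at -10 in UTP20 and -5 in RRP9, and at 3 in WDR43, 6 in FBL and 14 in both MRTO4 and UTP25. The ETS-type motif CCGGAAG, searched on both strands, was in 21 of the 60 promoters (35.0%), against 14.6% of the 14425. It was in 18 of 46 genes that fell, 2 of 7 that rose and 1 of 7 not called. The median fold change was -0.86 for the 21 genes with it and -0.57 for the 39 without it, a wider split than for CACGTG. The TATA-box letters TATAAA, searched likewise, were in 3 of 60 (5.0%), against 9.2%. The median was -0.86 for these 3 genes and -0.58 for the other 57. Median GC content was 62.5% in the 60 promoters and 63.0% in the 14425.

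**Figure D3:**
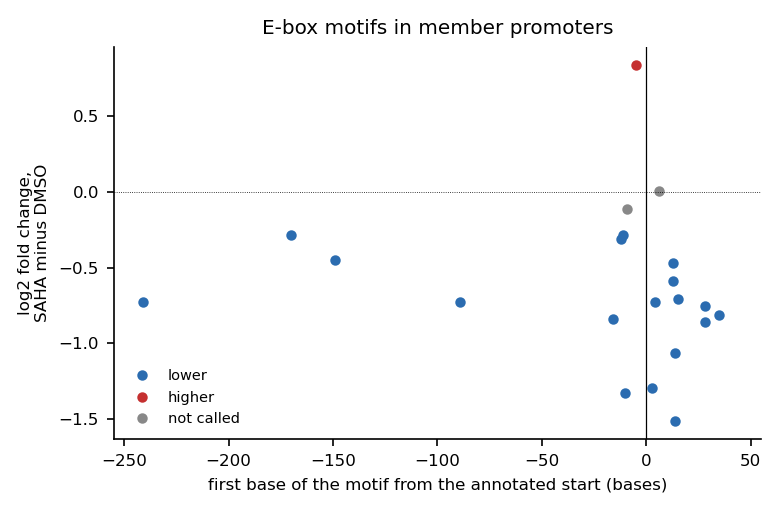
Each point is 1 of the 21 CACGTG hexamers in the promoters of 19 genes, placed by the distance of its first base from the annotated start (horizontal axis, bases; negative is upstream) and by the log2 fold change of its gene, SAHA minus DMSO (vertical axis). Most points lie within 50 bases of the start and below 0, and 1 point, of RRP9, is at 0.84.

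Most of the RNA polymerase I genes taken by the symbol rule were lower, while the subunits common to polymerases I, II and III were not. Of the 11 genes taken, 10 fell in the probe set used and 1 rose, against 23.8% of all genes lower and 24.6% higher. In none of the 11 did the 2 groups of arrays overlap. Over all genes, every SAHA array lay below every DMSO array in 27.5% and above in 28%. Of the 6642 genes with a mean log2 value of at least 8, 3066 (46.2%) lay below and 2620 above in this way. UBTF encodes the upstream binding factor, which coats active ribosomal DNA and helps to recruit the polymerase. It was at 7.11, 6.99 and 7.03 in SAHA arrays, against 8.75, 8.62 and 8.53 in DMSO arrays, a difference of -1.59 ± 0.07 or a 3.01-fold fall (limma's adjusted p = 1.48e-06). All 4 of its probe sets were lower, the others at -1.80 to -2.30. TAF1D, a subunit of the promoter selectivity factor SL1, had 7.94, 8.02 and 8.03 in SAHA arrays, against 8.84, 8.96 and 9.17 in DMSO arrays (-0.99 ± 0.09, limma's adjusted p = 4.25e-05). RRN3, which links the polymerase to SL1, changed less, with 7.82, 7.88 and 7.81 in SAHA arrays, against 8.16, 8.18 and 8.24 in DMSO arrays (-0.36 ± 0.05, limma's adjusted p = 0.000796).

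Transcripts of subunits of the enzyme itself differed in the size of their change and, in 1 case, in its direction. POLR1H, a small subunit involved in cleaving the nascent transcript, had 9.18, 9.08 and 9.09 in SAHA arrays, against 10.62, 10.73 and 10.61 in DMSO arrays (-1.53 ± 0.06, limma's adjusted p = 8.74e-07). It was measured by 1 probe set. POLR1A and POLR1B, the catalytic subunits, both fell. POLR1A had 8.52, 8.40 and 8.31 in SAHA arrays, against 9.29, 9.28 and 9.21 in DMSO arrays (-0.85 ± 0.07). POLR1B had 9.13, 8.95 and 9.01 in SAHA arrays, against 10.24, 10.07 and 10.03 in DMSO arrays (-1.08 ± 0.08), and its 6 probe sets all fell, with values of -0.92 to -1.11.

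The subunits POLR1E and POLR1G, which pair with each other on the enzyme, fell by less. POLR1E had 9.91, 9.94 and 9.91 in SAHA arrays, against 10.18, 10.16 and 10.12 in DMSO arrays (-0.24 ± 0.05, limma's adjusted p = 0.00528). POLR1G had 10.04, 9.94 and 10.08 in SAHA arrays, against 10.38, 10.27 and 10.34 in DMSO arrays (-0.31 ± 0.06, limma's adjusted p = 0.00360). The call of POLR1E was lost after centring the arrays on ribosomal protein genes or on poly-A spike-ins, and those of POLR1G and RRN3 on the spike-ins alone. POLR1F, of the stalk that contacts RRN3, was higher in all its 3 probe sets. The brightest had 10.16, 10.07 and 10.18 in SAHA arrays, against 9.69, 9.82 and 9.78 in DMSO arrays (0.37 ± 0.06, limma's adjusted p = 0.00132).

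POLR1C and POLR1D are shared with RNA polymerase III. POLR1C had 9.49, 9.42 and 9.35 in SAHA arrays, against 9.81, 9.84 and 9.81 in DMSO arrays (-0.40 ± 0.06, a call lost after centring on poly-A spike-ins). POLR1D had 9.28, 9.15 and 9.12 in SAHA arrays, against 9.89, 9.82 and 9.86 in DMSO arrays in its brightest probe set (-0.68 ± 0.06, limma's adjusted p = 5.06e-05). Its other 2 probe sets rose, both by 0.35 ± 0.06 (limma's adjusted p = 0.00223 and 0.00187 over probe sets), so no single direction holds for this gene, the only one of the 68 with probe sets called both ways. The 5 subunits that polymerases I, II and III have in common, POLR2E, POLR2F, POLR2H, POLR2K and POLR2L, lay on the other side of 0, between 0.14 and 0.41. Of these, 4 rose and POLR2H was not called (0.14 ± 0.05, limma's adjusted p = 0.0667). For comparison, 24.6% of all genes rose, and 35% of those with a mean log2 value of at least 8.

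**Figure D4:**
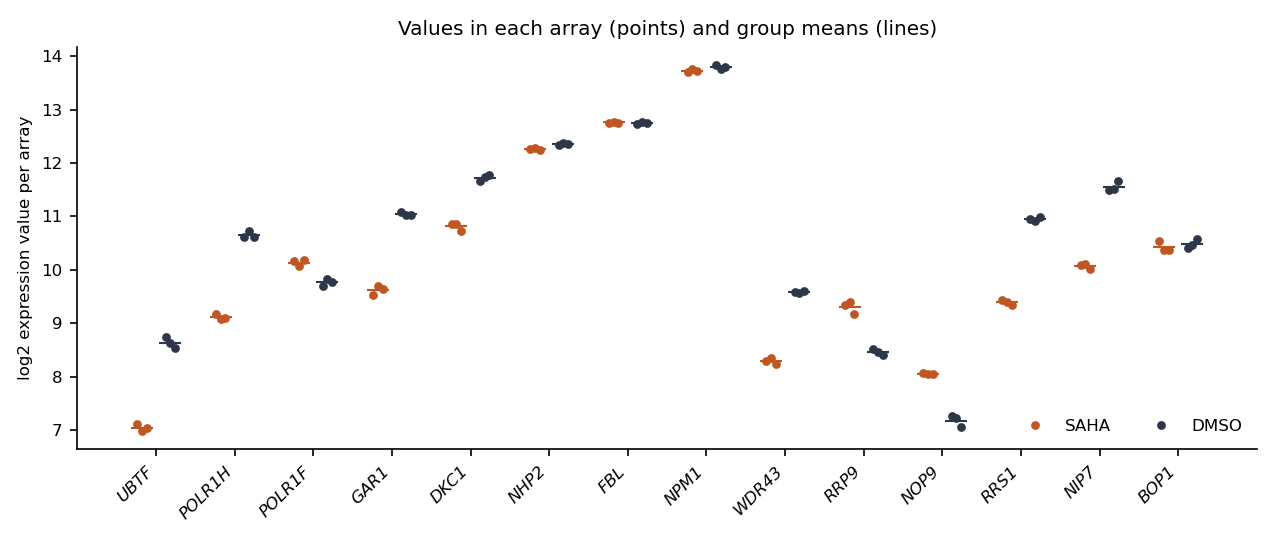
Log2 expression value (vertical axis) of 14 genes in each array, SAHA left of DMSO, with points for the 3 arrays and a line for their mean. UBTF, POLR1H, GAR1, DKC1, WDR43, RRS1 and NIP7 have all SAHA points below all DMSO points by a wide gap, POLR1F, RRP9 and NOP9 have them above, and FBL, NPM1 and BOP1 overlap. Levels of different genes come from different probe sets and are not comparable.

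In the 2 classes of snoRNP, transcripts of part of the core proteins were lower. Box H/ACA particles, which turn uridine into pseudouridine, hold 4 core proteins, and their transcripts spread widely. GAR1 had 9.53, 9.70 and 9.64 in SAHA arrays, against 11.08, 11.04 and 11.04 in DMSO arrays (-1.43 ± 0.06, limma's adjusted p = 1.32e-06). DKC1, the pseudouridine synthase dyskerin, had 10.87, 10.85 and 10.74 in SAHA arrays, against 11.67, 11.74 and 11.78 in DMSO arrays (-0.91 ± 0.06, limma's adjusted p = 9.98e-06). The SAHA arrays lay below the DMSO arrays for both by several times the spread within a group. NOP10 had 11.82, 11.82 and 11.80 in SAHA arrays, against 12.19, 12.07 and 12.05 in DMSO arrays (-0.29 ± 0.06, limma's adjusted p = 0.00396), a call lost after centring on poly-A spike-ins. NHP2 had 12.27, 12.28 and 12.24 in SAHA arrays, against 12.35, 12.37 and 12.36 in DMSO arrays and was not called (-0.10, 95% interval -0.21 to 0.02). Its arrays do not overlap between groups, but the gap is narrow. NHP2 gained a call, as a fall, under trend and robust moderation in limma. The intervals of GAR1 (-1.57 to -1.28) and NHP2 lie apart.

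Box C/D particles carry out 2'-O-methylation. Fibrillarin, the methyltransferase encoded by FBL, had 12.75, 12.77 and 12.76 in SAHA arrays, against 12.74, 12.77 and 12.75 in DMSO arrays, and the 95% interval of its difference was -0.11 to 0.12. Transcripts of its scaffold partners were lower. NOP56 had 11.98, 11.97 and 11.98 in SAHA arrays, against 12.45, 12.51 and 12.50 in DMSO arrays (-0.51 ± 0.05, limma's adjusted p = 7.70e-05). NOP58 had 11.55, 11.56 and 11.53 in SAHA arrays, against 11.85, 11.89 and 12.07 in DMSO arrays (-0.39 ± 0.07, a call lost after centring on poly-A spike-ins). Thus of the transcripts of the 3 core proteins in this list, that of FBL alone was not called. SNU13, a core protein of these particles outside the symbol rule, was not called either (0.04 ± 0.05, limma's adjusted p = 0.598).

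Of the transcripts of 2 abundant nucleolar phosphoproteins, 1 was lower. Nucleolin (NCL), which binds the precursor RNA, had 12.79, 12.89 and 12.82 in SAHA arrays, against 13.22, 13.10 and 13.12 in DMSO arrays (-0.32 ± 0.06, limma's adjusted p = 0.00269), a call lost after centring on poly-A spike-ins. Its other probe set was also called lower, at -0.59. Nucleophosmin (NPM1), a chaperone of ribosome assembly, had 13.70, 13.76 and 13.73 in SAHA arrays, against 13.83, 13.76 and 13.81 in DMSO arrays (-0.07, 95% interval -0.19 to 0.05). None of the 6 probe sets of NPM1 was called, and 5 of them are of a design that similar transcripts can share. As a gene, NPM1 gained a call, as a fall, under trend and robust moderation in limma.

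Factors of the large subunit were mostly lower. Of 18 genes, 15 fell, none rose and 3 were not called in the probe sets used, with a median fold change of -0.70. The falls were 83.3% of the group, while 23.8% of all genes fell and 24.6% rose. Of the 18, 7 fell by at least 2-fold: RRS1, MRTO4, PPAN, NIP7, NOL9, NOP16 and BRIX1, at -1.26 to -1.56. Such falls were found in 4.47% of all genes and in 6.7% of those with a mean log2 value of at least 8. RRS1, which helps to bring the 5S particle into the pre-60S subunit, had 9.44, 9.40 and 9.34 in SAHA arrays, against 10.96, 10.91 and 10.99 in DMSO arrays (-1.56 ± 0.06, limma's adjusted p = 5.56e-07). MRTO4, a placeholder for the ribosomal stalk, had 9.14, 9.08 and 8.99 in SAHA arrays, against 10.51, 10.57 and 10.67 in DMSO arrays (-1.51 ± 0.07). In both, every SAHA array lay far below every DMSO array. NIP7, needed for pre-rRNA processing, had 10.10, 10.11 and 10.01 in SAHA arrays, against 11.50, 11.52 and 11.66 in DMSO arrays (-1.49 ± 0.07). NOP16 had 10.30, 10.30 and 10.23 in SAHA arrays, against 11.53, 11.52 and 11.61 in DMSO arrays (-1.28 ± 0.06), and the dimmest of its 3 probe sets, at 4.01 in SAHA and 4.15 in DMSO arrays, was not called. PPAN was measured by 1 probe set, which is shared by similar transcripts.

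Members of 1 complex again differed. PES1, BOP1 and WDR12 form the PeBoW complex, which is needed to process the 5.8S and 28S precursors. PES1 was at -0.58 ± 0.07 and WDR12 at -0.36 ± 0.07, the call of WDR12 being lost after centring on poly-A spike-ins. BOP1, with 10.54, 10.37 and 10.37 in SAHA arrays, against 10.41, 10.46 and 10.58 in DMSO arrays, overlapped between the groups (95% interval -0.23 to 0.12). The other large subunit genes that fell were NOL12, NOP2, an rRNA cytosine methyltransferase, RRP1, NOP53, RRP15 and RRP8, an rRNA adenine methyltransferase, at -0.50 to -0.88. NOL8 and RRP1B were not called in the probe sets used. Of the other 3 probe sets of NOL8, 2 were lower, at -0.20 and -0.24, and the other one of RRP1B, which is dim, was higher, at 0.30. NOL8 gained a call in 3 alternatives and RRP1B, as a rise, in 4.

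Factors of the small subunit made up the largest group and held most of the rises. Of 26 genes, 19 fell, 4 rose and 3 were not called, with a median of -0.52. The falls were 73.1% of the group, against 23.8% of all genes. Its share of rises, 15.4%, lay below the 24.6% of all genes. TSR1, which blocks translation factors from the maturing 40S subunit, had 10.03, 9.86 and 9.86 in SAHA arrays, against 11.33, 11.34 and 11.34 in DMSO arrays (-1.42 ± 0.06, limma's adjusted p = 1.48e-06). WDR43, a component of the complex that first binds the 5' end of the precursor, had 8.30, 8.35 and 8.24 in SAHA arrays, against 9.58, 9.57 and 9.61 in DMSO arrays (-1.29 ± 0.05). Both stand apart between the groups, as do RRP36 and UTP4. RRP36, an early cleavage factor, had 9.66, 9.66 and 9.56 in SAHA arrays, against 10.48, 10.49 and 10.53 in DMSO arrays (-0.88 ± 0.06). UTP4, of the same early complex as WDR43, had 10.85, 10.78 and 10.76 in SAHA arrays, against 11.65, 11.60 and 11.64 in DMSO arrays (-0.84 ± 0.05).

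Transcripts of other proteins of that first complex did not all move as far. NOL11 was at -0.83 ± 0.05 and WDR75 at -0.57 ± 0.06, and UTP15 was not called in the probe set used (-0.09 ± 0.06), while 1 of its other 2 probe sets was lower, at -0.57. Of the remaining genes, UTP20 and UTP25 fell by at least 2-fold. For UTP25 this size rests on the brightest probe set (-1.06), since the others were at -0.48 and, dim and not called, at 0.01, and the mean of all 3 gave -0.51. LTV1 and BYSL, which act late on the pre-40S particle, were at -0.86 ± 0.09 and -0.75 ± 0.06. UTP18, UTP14A and NOP14 lay between -0.71 and -0.72, and NOL6, NOL7, RRP12, NOL10, UTP11 and RRP7A between -0.28 and -0.47. The calls of NOL10, UTP11 and RRP7A were lost after centring on poly-A spike-ins, and those of UTP11 and RRP7A also on ribosomal protein genes and at a threshold of 0.01. The other probe sets of NOL10 and UTP11, both dimmer, were lower by more, at -0.73 and -0.69. Those of RRP7A were lower at -0.31 and -0.30, and not called at 0.01 and 0.08. UTP6 and UTP23 were not called, though the other probe set of UTP23 was lower, at -0.63.

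The 4 small subunit genes that rose were NOP9, RRP9, UTP14C and UTP3. NOP9, an RNA-binding factor of early cleavage, had 8.07, 8.04 and 8.05 in SAHA arrays, against 7.26, 7.22 and 7.06 in DMSO arrays (0.87 ± 0.07, limma's adjusted p = 1.83e-05), and all its 3 probe sets rose. RRP9, which binds the U3 snoRNA, had 9.34, 9.40 and 9.18 in SAHA arrays, against 8.52, 8.47 and 8.41 in DMSO arrays (0.84 ± 0.07, limma's adjusted p = 3.60e-05). It has a single probe set. These rises were of 1.83-fold and 1.79-fold, within groups that did not overlap. UTP14C had 8.998, 8.90 and 8.92 in SAHA arrays, against 8.30, 8.39 and 8.35 in DMSO arrays (0.59 ± 0.06). It is a retrocopy of UTP14A, whose only probe set naming it alone was dim, with 4.81, 4.75 and 4.50 in SAHA arrays, against 5.43, 5.50 and 5.30 in DMSO arrays. The 2 transcripts can share signal, so their opposite directions are uncertain. UTP3 had 10.40, 10.43 and 10.41 in SAHA arrays, against 10.23, 10.28 and 10.27 in DMSO arrays. It rose by 0.15 ± 0.05 (limma's adjusted p = 0.0394), and this call was lost when any 1 of the 6 arrays was left out, at 0.14 to 0.16.

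Of the 4 genes that match by symbol only, NOL3 fell to 7.88, 7.71 and 7.61 in SAHA arrays, against 8.60, 8.55 and 8.56 in DMSO arrays (-0.84 ± 0.08). NOL4 was higher at a dim level, with 4.52, 4.55 and 4.37 in SAHA arrays, against 4.23, 4.11 and 4.14 in DMSO arrays. NOL4L, with 7.61, 7.51 and 7.58 in SAHA arrays, against 7.34, 7.45 and 7.28 in DMSO arrays, was at 0.21 ± 0.06 (limma's adjusted p = 0.0288), a call lost without SAHA replicate 1 (0.19) or 3 (0.20) or DMSO replicate 1 (0.20) or 3 (0.17). NOL4L-DT overlapped between groups and was not called, with 3.92, 3.78 and 3.74 in SAHA arrays, against 4.07, 3.87 and 3.97 in DMSO arrays. Without these 4 genes, 50 of 64 fell and 5 rose.

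A gene's value here is that of its brightest probe set, and 51 of the 68 genes had several. In 26 of these 51 every probe set was called lower, in 4 every one higher, and in 14 some were lower and none higher. These counts show agreement within genes only, as the same shares over all genes with several probe sets were not computed. Over all 168 probe sets of the 68 genes, 114 were lower and 17 higher, against 24.1% of all probe sets lower and 22.2% higher. The falls of RRP1, BYSL and RRP8 were not called in the next brightest probe set, which was dim for BYSL at 3.17 in SAHA and 3.35 in DMSO arrays. That of RRP15 rests on a probe set shared by similar transcripts, and its other probe set was at 0.11 ± 0.07 and not called.

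**Figure D5:**
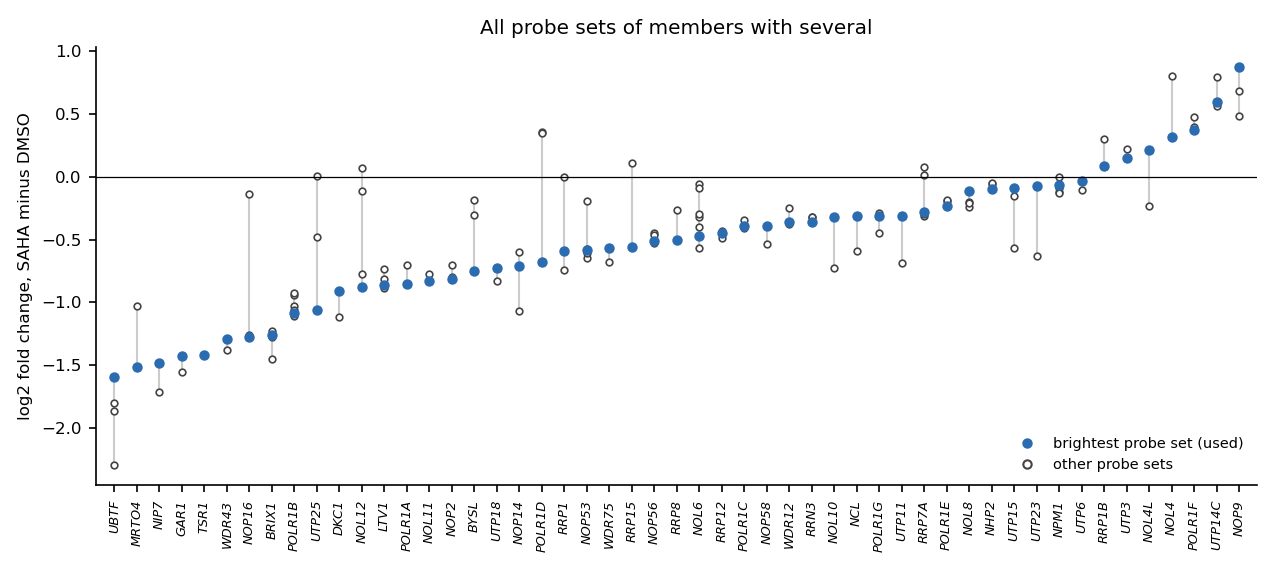
Log2 fold change, SAHA minus DMSO (vertical axis), of every probe set of the 51 genes that have several, with genes ordered by their brightest probe set. Filled points are the brightest probe sets, which represent the genes elsewhere, and open points the others; the 3 of POLR1D lie on both sides of 0, at -0.68, 0.35 and 0.35.

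Nucleolar genes outside the symbol rule also fell more often than they rose. Of 94 measured from a textbook list, 58 fell (61.7%), 8 rose (8.51%) and 28 were not called, with a median of -0.32. Among all genes 23.8% fell and 24.6% rose, and among those with a mean of at least 8, 40.8% and 35%. A fall of at least 2-fold was found in 10 of the 94 (10.6%). It was found in 4.47% of all genes and in 6.7% of those with a mean of at least 8. The largest falls were those of WDR74 (-1.76 ± 0.05), which acts with the ATPase NVL on the pre-60S subunit, and EMG1 (-1.76 ± 0.05), an 18S rRNA methyltransferase. Of 12 genes of the RNA exosome, which trims the 5.8S precursor, and its helicase MTREX, 11 fell, and the nuclease DIS3 was not called (-0.03 ± 0.06). Of 9 snoRNP assembly genes 3 fell (33.3%), a share between those of all genes and of genes with a mean of at least 8, and SHQ1, a chaperone of dyskerin, rose by 0.44 ± 0.06. Of 13 further genes of polymerase I transcription, which include the 5 shared subunits, 4 fell (30.8%), 5 rose (38.5%) and 4 were not called, with a median of -0.04. TCOF1, which encodes treacle, was lower, at -0.87 ± 0.07. TAF1A and TAF1B of SL1 were lower, at -0.43 ± 0.05 and -0.31 ± 0.06, while TAF1C was not called (-0.06 ± 0.05). BAZ2A, of the complex that silences ribosomal DNA, rose by 0.44 ± 0.05. Centred on ribosomal protein genes, 51 of the 94 were lower and 17 higher, and centred on poly-A spike-ins 37 and 14. These scalings move every gene. Of all genes, 18.7% were lower and 33.3% higher under the first, and 14.1% and 32.1% under the second.

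The array also holds control probe sets for the rRNAs themselves, whose RNA has no poly(A) tail and is copied only in part by an oligo(dT)-primed kit. The 3 probe sets for 18S rRNA averaged 11.81 ± 0.04 in SAHA and 11.99 ± 0.16 in DMSO arrays, and the 3 for 28S rRNA 9.43 ± 0.06 and 9.63 ± 0.03 (SD, n = 3 each). Exact permutation p was 0.1 for each and 0.175 adjusted. For both the SAHA arrays lay below the DMSO arrays. The 28S probe sets were uneven, at -0.10 for the 5' one, -0.52 for the middle one and 0.03 for the 3' one. Poly-A spike-ins were at 6.51 ± 0.08 in SAHA and 6.67 ± 0.11 in DMSO arrays (exact permutation p = 0.2). Levels of mature rRNA, rates of its synthesis and levels of proteins were not measured.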

How the data were processed

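The authors deposited 1 log2 value for each probe set and array. RMA (background correction, quantile normalization and median polish) is named per the submitters' processing notes. Its software is not given in the sources used here. The table holds 49395 probe sets, 102 of them array controls. Because quantile normalization equalizes the arrays, a shift of most transcripts cannot be seen. Apart from that, fold changes of dim probe sets are understated. Platform annotation named 1 gene for 44988 probe sets. Left out were the 1832 annotated with several genes and the 2473 with none. Each gene was represented by its probe set with the highest mean over 6 arrays. SAHA minus DMSO was tested with limma 3.58.1 (lmFit, eBayes, two-sided) in R 4.3.3 over 18132 genes, without covariates or filter, and for probe sets over all that are not controls. This fit was tested on simulated data with known changes. Genes were all nameable as members; values in every array are given for each polymerase I gene and, in each other role, for the 4 smallest p-values and up to 4 rises. Others shown by array were chosen after their values were seen. The members, lists and alternatives were chosen with earlier results of these data known. Array controls were compared with exact permutation tests. Promoters come from RefSeq, GRCh38.p14, and figures were drawn with matplotlib 3.10.9. Besides the 3 promoter motifs given, 2 longer ones were searched and left out after their counts were seen, for reasons unrelated to those counts.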

Additional observations from a re-analysis of the deposited data

How the results depend on the processing

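Results were recomputed under 16 alternatives. The 51 falls stayed between 40 (centred on poly-A spike-ins) and 53, the 7 rises between 5 and 8, and the falls of at least 1.5-fold between 26 and 34. Leaving out 1 array in turn gave 51 falls each time. Of the 58 called genes, 40 kept their call in every alternative run. Of the 10 not called, 6 gained a call in some alternative. The median of the 68 genes was -0.46 with the mean of each gene's probe sets, -0.45 centred on ribosomal protein genes and -0.40 centred on poly-A spike-ins. These scalings moved the median of all genes to 0.11 and 0.16, and the difference of the 2 medians was -0.55 under each, by construction. Called genes changed sign only with other probe sets: POLR1D was at 0.0093 with the mean and 0.35 with the second brightest probe set, NOL4L at -0.011 and -0.23, and RRP15 at 0.11 with the second brightest and without _x_at and _s_at probe sets. Of the 94 other nucleolar genes, 5 rose with the second brightest probe set, 17 centred on ribosomal protein genes, 14 centred on poly-A spike-ins and 13 with trend and robust moderation, and 37 fell centred on poly-A spike-ins. Over all genes, 21.2% rose with the second brightest probe set, 33.3% and 32.1% under the 2 scalings, and 25.4% with trend and robust moderation. Centred on poly-A spike-ins, 14.1% of all genes fell. The cause of these differences between settings was not tested. With the replicate number as a block 51 of the 68 fell and 5 rose. Same-numbered samples deviated with correlations of -0.13, -0.07 and -0.04, and other pairs with -0.03 to 0.10. With 3 arrays per group, such values cannot show whether same-numbered samples were handled together.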
